A study of Mus musculus with 27 samples.

Results

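Molecular chaperones and the factors that raise them were followed in single nuclei of the mouse hippocampus. The set held 10 genes, chosen by symbol, out of the 31053 genes in the count tables: the cytosolic chaperones and co-chaperones Hsp90aa1, Hsp90ab1, Hspa8, Hsph1, Dnajb1 and Hspa4l, the endoplasmic reticulum (ER) chaperone Hspa5, and the transcription factors Xbp1, Atf4 and Ddit3. All 10 were found, each as 1 row. Hippocampi came from 27 mice of 6 genotype groups, 1 library a mouse: Cgas+/+ (5 mice), Cgas+/- (2), Cgas-/- (2), P301S Cgas+/+ (6), P301S Cgas+/- (6) and P301S Cgas-/- (6). P301S mice carry a transgene for human tau with the P301S mutation, driven by the mouse prion protein promoter, and Cgas encodes the DNA sensor cGAS, which was deleted throughout the body. The mice were littermates of 8 to 10 months that, per the study's methods, had gone through behavioural tests earlier. The Cgas+/- and Cgas-/- mice without tau were all male, and every other group held both sexes.

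Cytosolic heat shock proteins of the Hsp90 and Hsp70 families fold client proteins with the help of J-domain proteins and nucleotide exchange factors, and their genes are switched on by heat shock factors when unfolded proteins build up. In the ER the same task falls to BiP, the product of Hspa5. When BiP is overloaded, the unfolded protein response splices Xbp1 mRNA and slows translation, which favours translation of Atf4 mRNA, and ATF4 in turn raises Ddit3, which encodes CHOP. Tau is a client of both Hsp70 and Hsp90 in neurons. Splicing of Xbp1 and translation of Atf4 are not seen in these counts, which measure RNA in nuclei.

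The regulatory letters that define the 2 branches can be read in 2 of the members. They are shown because the members are grouped here by the branch they belong to. Windows from 250 bases before to 50 bases after each start were taken from a set of RefSeq windows (GRCm38.p6), in which 7 of the 10 members matched by symbol. Hsp90aa1, Hsp90ab1 and Hspa8 had no entry in that set, which does not mean that RefSeq lacks them. Each motif was searched on both strands. The 250 bases before the start of Hspa5, at chr2:34771840-34772089 on the plus strand, held a match to the ER stress element, CCAAT and CCACG with 9 bases of any kind between them, beginning 65 bases before the start, in capitals in the first line. Hsph1 had 2 overlapping windows, which shared a match to 3 units of the heat shock element, GAA and TTC in turn with 2 bases of any kind between units. It is in capitals in the second line, at chr5:149636279-149636308 on the minus strand. This match began after the start, by 36 bases in 1 window and by 15 in the other.
Hspa5: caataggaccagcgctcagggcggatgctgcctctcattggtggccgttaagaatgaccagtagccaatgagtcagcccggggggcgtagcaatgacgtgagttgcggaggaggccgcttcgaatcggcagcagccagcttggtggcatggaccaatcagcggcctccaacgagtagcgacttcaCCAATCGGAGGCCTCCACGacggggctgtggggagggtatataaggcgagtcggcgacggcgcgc
Hsph1: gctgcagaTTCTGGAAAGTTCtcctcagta
Of all 32851 windows of this length, 0.119% held the ER stress element and 0.603% held the heat shock element. The amino acid response element TGATGNAAT, a binding motif of ATF4, was in 0.965% of windows and in that of no member. The CCAAT box alone, which is part of the ER stress element, was in 37.4% of windows and in those of Atf4, Ddit3, Dnajb1, Hspa5 and Hsph1.

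The genes lie apart from each other in the mouse genome (GRCm38). Hsp90aa1 is at chr12:110690605-110702728, Hsp90ab1 at chr17:45567775-45573271 and Hspa8 at chr9:40800984-40810087. Hsph1 is at chr5:149614287-149636376, Dnajb1 at chr8:83608193-83612653 and Hspa4l at chr3:40744495-40796103. Hspa5 is at chr2:34771970-34777547, Xbp1 at chr11:5520659-5525893, Atf4 at chr15:80255184-80257541 and Ddit3 at chr10:127290774-127296288. These spans are from GENCODE, in which Hspa5 begins before the RefSeq start used above. The ER stress element therefore lies before the RefSeq start but within the GENCODE span. Counts include reads from introns, which make up 77.15% of the span of Hspa4l, 67.58% of that of Hsp90aa1 and 0% of that of Atf4. The row of Ddit3 overlaps a second Ddit3 entry on the same strand, so how reads were split between them is uncertain. Processed copies of Hsp90aa1, Hsp90ab1 and Hspa8 can share reads with the parent genes, and their part in the counts was not tested.

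The tables held 241938 barcodes, 7246 to 14770 a library, with 46091490 to 79484316 unique molecular identifiers (UMIs) a library. After filtering, 204852 nuclei remained and 5203 barcodes occurred in 2 or more libraries. Clusters were named from markers, and each name means only that the nuclei resemble that type. Here 75939 nuclei were excitatory neuron-like (among them 19860 dentate granule-like, 15362 CA1-like, 4046 CA3-like and 21914 cortical-like), 11391 microglia-like, 12415 inhibitory neuron-like, 45514 oligodendrocyte-like and 26914 astrocyte-like, and 9.321% were unnamed. Levels are CPM, a gene's share of the class's UMIs scaled to 1e6, from UMIs summed over the nuclei of a class in a mouse. In such sums fewer nuclei of a subtype and less RNA per nucleus cannot be told apart. RNA set free from other cells was not removed, and its part in the levels was not tested. Dentate granule-like nuclei numbered 17 to 1502 a mouse. In 3 libraries, P301S Cgas+/+ replicate 3, P301S Cgas+/- replicate 1 and P301S Cgas-/- replicate 2, the class sizes stood apart from the rest. The level of Cgas in microglia-like nuclei, listed under its older symbol Mb21d1, was 35.5 ± 2.41 CPM (SD, n = 5) in the Cgas+/+ libraries. The Cgas+/- libraries had 19.1 ± 4.65 CPM (n = 2) and the Cgas-/- libraries 27.3 ± 8.14 CPM (n = 2). In the libraries labelled P301S it was 37.9 ± 11.7 CPM (n = 6) for Cgas+/+, 42.7 ± 11.2 CPM (n = 6) for Cgas+/- and 51.4 ± 7.02 CPM (n = 6) for Cgas-/-. The level was thus lower in the libraries labelled with a lost allele without tau but not among those labelled P301S, against their labels. The 3' counts can lie outside a deleted stretch, so the genotype is taken from the labels alone.

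Across classes, oligodendrocyte-like nuclei had higher mean levels of Hsp90ab1, Hsp90aa1 and Hspa8 than neuron-like nuclei. Hsp90ab1, the constitutive cytosolic Hsp90, stood at 89.7 ± 39.0 CPM (SD, n = 27) in oligodendrocyte-like and 41.7 ± 10.2 CPM in excitatory neuron-like nuclei. Hsp90aa1, its stress-inducible paralogue, stood at 36.6 ± 14.7 and 16.2 ± 5.16 CPM in the same classes. Hspa8, the constitutive Hsc70, stood at 37.6 ± 19.5 and 15.4 ± 5.93 CPM. The spread between mice was wide in oligodendrocyte-like nuclei, from 38.2 to 172 CPM for Hsp90ab1 and from 18.4 to 101 CPM for Hspa8. In 0 of 27 mice was any of the 3 higher in dentate granule-like or CA1-like nuclei than in oligodendrocyte-like nuclei, which is given as a description. Inhibitory neuron-like nuclei had the higher level in 2, 2 and 4 of 27 mice for Hsp90aa1, Hsp90ab1 and Hspa8. Endothelial-like nuclei, which held at least 20000 UMIs in 24 mice, had 129 ± 82.9 CPM of Hsp90ab1 and 90.6 ± 53.9 CPM of Hspa8.

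Neighbours in the order of classes were compared within mice on the log2(CPM + 1) scale, with 2-sided sign-flip permutation tests adjusted over 134 neighbouring pairs. Only 12 of the 134 differed beyond the spread, so most of the order is not resolved. For Hsp90aa1 the oligodendrocyte-like level exceeded the inhibitory neuron-like one by 0.73 in the mean, in 25 of 27 mice (permutation p = 1e-05, the smallest 100000 resamples can give). Ependymal-like nuclei were higher again, at 81.7 ± 50.2 CPM (n = 19), by 1.005 (permutation p = 0.00016). For Hspa8 the endothelial-like level exceeded the oligodendrocyte-like one by 1.19, in 21 of 24 mice.

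The co-chaperones followed other orders. Hsph1, a large Hsp70-like protein that serves Hsp70 as nucleotide exchange factor, reached 183 ± 79.8 CPM in ependymal-like nuclei (n = 19). It was next at 49.3 ± 11.7 CPM in oligodendrocyte progenitor-like nuclei, a difference of 1.89 on the log2 scale found in 19 of 19 mice. Hspa4l, of the same Hsp110 family, was at 228 ± 73.5 CPM in ependymal-like nuclei. Among neuron-like nuclei Hspa4l was at 34.5 ± 4.35 CPM in dentate granule-like, 63.1 ± 11.5 in CA1-like, 56.1 ± 10.8 in CA3-like (n = 24) and 68.3 ± 11.3 in cortical-like nuclei. The ranges of the dentate granule-like level, 23.6 to 46.5 CPM, and the CA1-like level, 39.8 to 90.9 CPM, overlapped, but in 0 of 27 mice was the dentate granule-like level the higher one. Dnajb1, the inducible J-domain partner of Hsp70, was scarce in every class, with 3.36 ± 1.93 CPM in oligodendrocyte-like and 0.813 ± 0.445 CPM in dentate granule-like nuclei. At such counts none of its neighbouring classes could be ordered.

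Hspa5, Xbp1 and Atf4 had higher mean levels in microglia-like than in excitatory neuron-like nuclei, which is given as a description. Hspa5 stood at 37.8 ± 11.7 CPM (n = 27) in microglia-like nuclei against 15.4 ± 3.21 in excitatory neuron-like nuclei. Inhibitory neuron-like nuclei lay between, at 25.7 ± 8.21 CPM, with a range of 14.5 to 51.0 CPM that overlapped the 16.0 to 64.4 CPM of microglia-like nuclei. Xbp1, whose spliced product drives ER chaperone genes, stood at 28.6 ± 8.02 against 9.05 ± 2.03 CPM. In 0 of 27 mice was Hspa5 or Xbp1 higher in dentate granule-like than in microglia-like nuclei, and Atf4 was in 1. Atf4, the effector of the integrated stress response, stood at 17.1 ± 7.63 against 6.16 ± 2.01 CPM. Ddit3 stood at 10.6 ± 5.2 CPM in microglia-like nuclei and 2.28 CPM in excitatory neuron-like nuclei, and was listed at 18.9 ± 13.6 CPM in choroid plexus-like nuclei (n = 19). No neighbouring classes passed the test for Hspa5, Xbp1 and Atf4. For Ddit3 only the step from astrocyte-like to inhibitory neuron-like nuclei did, by 0.52 on the log2 scale in 23 of 27 mice.

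**Figure D1:**
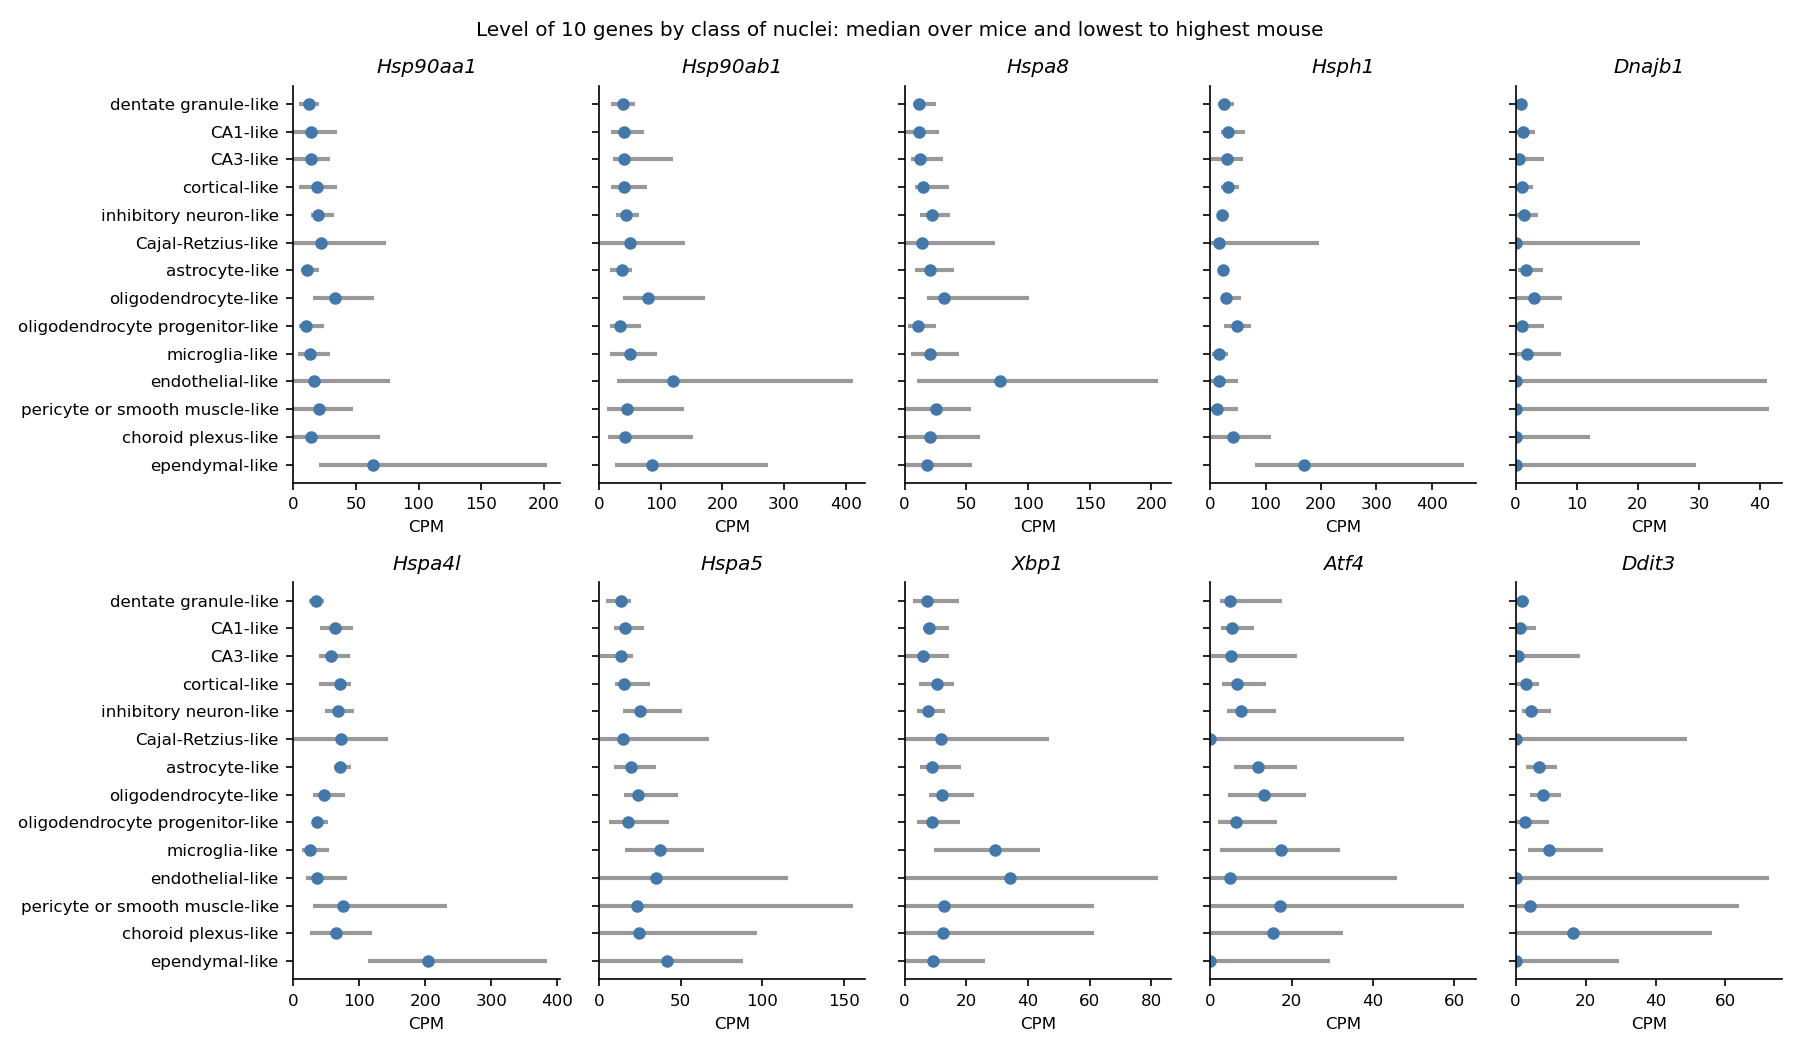
Level of each of the 10 genes in CPM by class of nuclei. Dots give the median over mice and lines run from the lowest to the highest mouse; oligodendrocyte-like nuclei have higher medians than the neuron-like classes for Hsp90aa1, Hsp90ab1 and Hspa8, as do microglia-like nuclei for Hspa5, Xbp1 and Atf4, with ranges that overlap in part.

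No member passed the test in any comparison of genotypes, apart from Ddit3 in CA3-like nuclei when the filter on low counts was lifted. The comparisons asked what tau changes (P301S Cgas+/+ against Cgas+/+, and the 3 P301S groups against the 3 others), what loss of 1 or both Cgas alleles changes among P301S mice, and what loss of both changes without tau. In the comparison of 3 groups with 3, each group mean had the same weight, whatever its number of mice. The Cgas+/- and Cgas-/- groups without tau, of 2 male mice each, thus each weighed as much as the 5 Cgas+/+ mice. Each gene was tested with edgeR's quasi-likelihood test on sums per mouse, in 5 broad classes and 4 excitatory subtypes, with Benjamini-Hochberg adjustment over all genes of a class. Of 446 tests of members 0 were called at an adjusted p under 0.05, 31 (6.95%) had an unadjusted p under 0.05, and DESeq2 called 0. Over all genes in the same classes and comparisons, 7.2% of tests had an unadjusted p under 0.05, from 4.44% for Cgas-/- against Cgas+/+ to 12.4% for all P301S groups, so the members' share was near the background. The adjusted p values ranged from 0.115 upwards. In 337 of the 446 tests the 95% interval lay within a 2-fold change either way. Dnajb1 was too low to be tested in microglia-like, dentate granule-like and CA3-like nuclei. In counts simulated for the comparison of P301S Cgas-/- with P301S Cgas+/+, 29% of genes changed 1.5-fold and 63% of those changed 2-fold were recovered in excitatory neuron-like nuclei. The shares were 49% and 75% in oligodendrocyte-like, 39% and 62% in dentate granule-like and 16% and 52% in microglia-like nuclei. In these counts 100 genes were changed at each fold at once, and each gene was drawn on its own. Variation that genes share between mice was thus absent, and the shares may be too high for a single changed gene in the real counts.

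The share of all genes that edgeR called was small in most comparisons, and DESeq2 called more. For P301S Cgas+/+ against Cgas+/+, the share of all genes called was 0.0227% in excitatory neuron-like, 0.0075% in inhibitory neuron-like, 0.00726% in astrocyte-like, 0.0077% in oligodendrocyte-like and 0.238% in microglia-like nuclei. It was 0.00695% in dentate granule-like, 0.0207% in CA1-like, 0.00898% in CA3-like and 0.0134% in cortical-like nuclei. By DESeq2, 205 genes in astrocyte-like and 292 in microglia-like nuclei were called in this comparison. Against these shares, 0 of the members' 87 tests were called and 5 had an unadjusted p under 0.05. For all P301S groups against all others the shares were 2.51%, 0.0225%, 2.68%, 0.0077% and 11.6% in the 5 broad classes in the same order, and 0.702%, 0.0276%, 0.018% and 0.0469% in the 4 subtypes. Here 0 of 87 member tests were called and 6 had an unadjusted p under 0.05. Without the 3 libraries that stood apart, 35 in place of 443 genes were called in excitatory neuron-like nuclei, and the members' count stayed at 0.

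In the comparison of P301S Cgas+/+ with Cgas+/+, changes of the cytosolic chaperones did not pass the test. Hspa8 and Hsp90ab1 were below 0 in 8 of 9 classes and Dnajb1 in 5 of 6, and Hsp90aa1 and Hsph1 were above 0 in 6 and 7 of 9. In astrocyte-like nuclei Hspa8 was at 18.3, 19.7, 22.6, 29.2 and 39.8 CPM in the 5 Cgas+/+ mice, and at 8.12 to 28.9 CPM with a median of 19.3 in the 6 P301S Cgas+/+ mice. The groups overlapped, and the log2 fold change of -0.54 (SE 0.21, interval -0.96 to -0.12) had an adjusted p of 0.268. Hspa5 in the same nuclei had a log2 fold change of -0.45 (SE 0.20, adjusted p = 0.346). Hsp90ab1 lay between -0.35 and 0.03 on the log2 scale in the 9 classes, and Hsp90aa1 between -0.17 and 0.26.

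Xbp1 had a log2 fold change below 0 in 9 of 9 classes in this comparison, from -0.62 to -0.08. In dentate granule-like nuclei it was at 7.77, 8.09, 8.37, 9.65 and 10.8 CPM in Cgas+/+ mice and at 2.78 to 11.2 CPM, median 7.4, in P301S Cgas+/+ mice. The difference of -0.47 (SE 0.22, interval -0.93 to -0.01) had an adjusted p of 1. Classes of a mouse share their library, and the subtypes are part of the excitatory class, so such counts over classes are descriptions. Atf4 was below 0 in 8 of 9 classes, with -0.65 (SE 0.27, adjusted p = 1) in cortical-like nuclei.

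Ddit3 in CA3-like nuclei had the widest values, with log2 fold changes of 2.62 (SE 0.91, adjusted p = 1) for P301S Cgas+/+ against Cgas+/+ and 2.12 (SE 0.72, adjusted p = 0.515) for all P301S groups. These rest on 75 UMIs in all, and 24 mice had enough CA3-like nuclei to enter the fit. The Cgas+/+ mice had 0, 0, 1, 2 and 3 UMIs, and the 6 P301S Cgas+/+ mice, of which 5 entered, had 0, 0, 0, 3, 9 and 22. With no filter on low counts both values passed, at edgeR adjusted p values of 0.0316 and 0.0183, and 114 and 181 of the 22953 genes then tested were called. In excitatory neuron-like nuclei as a whole, no member had an unadjusted p under 0.05 in either comparison of tau.

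Across all P301S groups, the Hsp90 genes of oligodendrocyte-like nuclei were somewhat higher, without passing the test. Hsp90aa1 had a log2 fold change of 0.47 (SE 0.22, interval 0.01 to 0.93, adjusted p = 0.368). It was at 20.6, 28.3, 29.4, 31.1 and 55.6 CPM in Cgas+/+ mice, 24.2 and 25.5 in Cgas+/- mice and 19.6 and 23.4 in Cgas-/- mice. In P301S mice it ran from 15.6 to 64.7 CPM with a median of 36.5 for Cgas+/+, from 24.7 to 57.1 with 34.2 for Cgas+/-, and from 30.7 to 61.5 with 44.8 for Cgas-/-. The 4 mice with a lost Cgas allele and no tau lay below the P301S Cgas-/- mice and within the range of the P301S Cgas+/+ mice, and 1 of them lay below every Cgas+/+ mouse. Without P301S Cgas+/+ replicate 1 the change of Hsp90aa1 was 0.31. Hsp90ab1 had 0.41 (SE 0.20, adjusted p = 0.377), and 0.68 without sex as a term. Dnajb1 had 0.87 (SE 0.42, adjusted p = 0.375), which became 2.34 (edgeR adjusted p = 0.356) without Cgas-/- replicate 2, which leaves 1 Cgas-/- mouse, with 0 UMIs of the gene. In astrocyte-like nuclei Hspa5 had -0.34 (SE 0.15, adjusted p = 0.243), but -0.06 without sex as a term and -0.22 without Cgas+/- replicate 1. In CA3-like nuclei Xbp1 had -0.66 (SE 0.30, adjusted p = 0.765), and -0.34 without sex as a term.

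Among P301S mice, loss of both Cgas alleles went with a higher Atf4 level in all 9 classes, but in none did the difference pass the test. For this comparison the share of all genes called was 0.015% in inhibitory neuron-like nuclei and 0% in the other 8 classes. Of the 87 member tests 0 were called and 9 (10.3%) had an unadjusted p under 0.05, 5 of them for Atf4, beside 5.86% of all genes, and 14.4% of all genes in excitatory neuron-like nuclei. In excitatory neuron-like nuclei Atf4 was at 2.99, 4.04, 4.34, 4.35, 6.003 and 6.24 CPM in P301S Cgas+/+ mice and at 3.63, 4.77, 5.57, 9.70, 9.98 and 12.1 CPM in P301S Cgas-/- mice. Of the 6 deleted mice, 3 lay above every P301S Cgas+/+ mouse and 3 lay among them. The log2 fold change was 0.64 (SE 0.21, interval 0.21 to 1.06, adjusted p = 0.183). Cgas+/+ mice were at 5.26, 5.36, 5.56, 5.92 and 8.36 CPM, a range that overlapped both groups.

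In inhibitory neuron-like nuclei Atf4 had a log2 fold change of 0.77 (SE 0.25, adjusted p = 0.567), with 4.16 to 7.62 CPM in P301S Cgas+/+ mice and 5.3 to 16.3 CPM in P301S Cgas-/- mice. It had 0.82 (SE 0.26, adjusted p = 1) in cortical-like, 0.63 (SE 0.26, adjusted p = 1) in oligodendrocyte-like and 0.55 (SE 0.24, adjusted p = 1) in dentate granule-like nuclei. In microglia-like nuclei the interval of 0.63 ran from -0.01 to 1.28. The share of UMIs from ribosomal protein genes, a sign of cytoplasmic RNA, moved alongside: in excitatory neuron-like nuclei it was 0.0274 to 0.0507% (median 0.0407) in P301S Cgas-/- mice and 0.0257 to 0.0433% (median 0.0355) in P301S Cgas+/+ mice. With that share as a term Atf4 had 0.43 in excitatory neuron-like, 0.47 in inhibitory neuron-like, 0.52 in cortical-like, 0.30 in dentate granule-like and 0.24 in oligodendrocyte-like nuclei, all smaller than without it. The immediate early genes, which respond within minutes to activity, had a median above 0 in this comparison too: in excitatory neuron-like nuclei 8 of the 10 had an unadjusted p under 0.05 and 0 were called, with a median log2 fold change of 1.35 beside 0.00 over all genes. Their part in the Atf4 values was not tested.

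**Figure D2:**
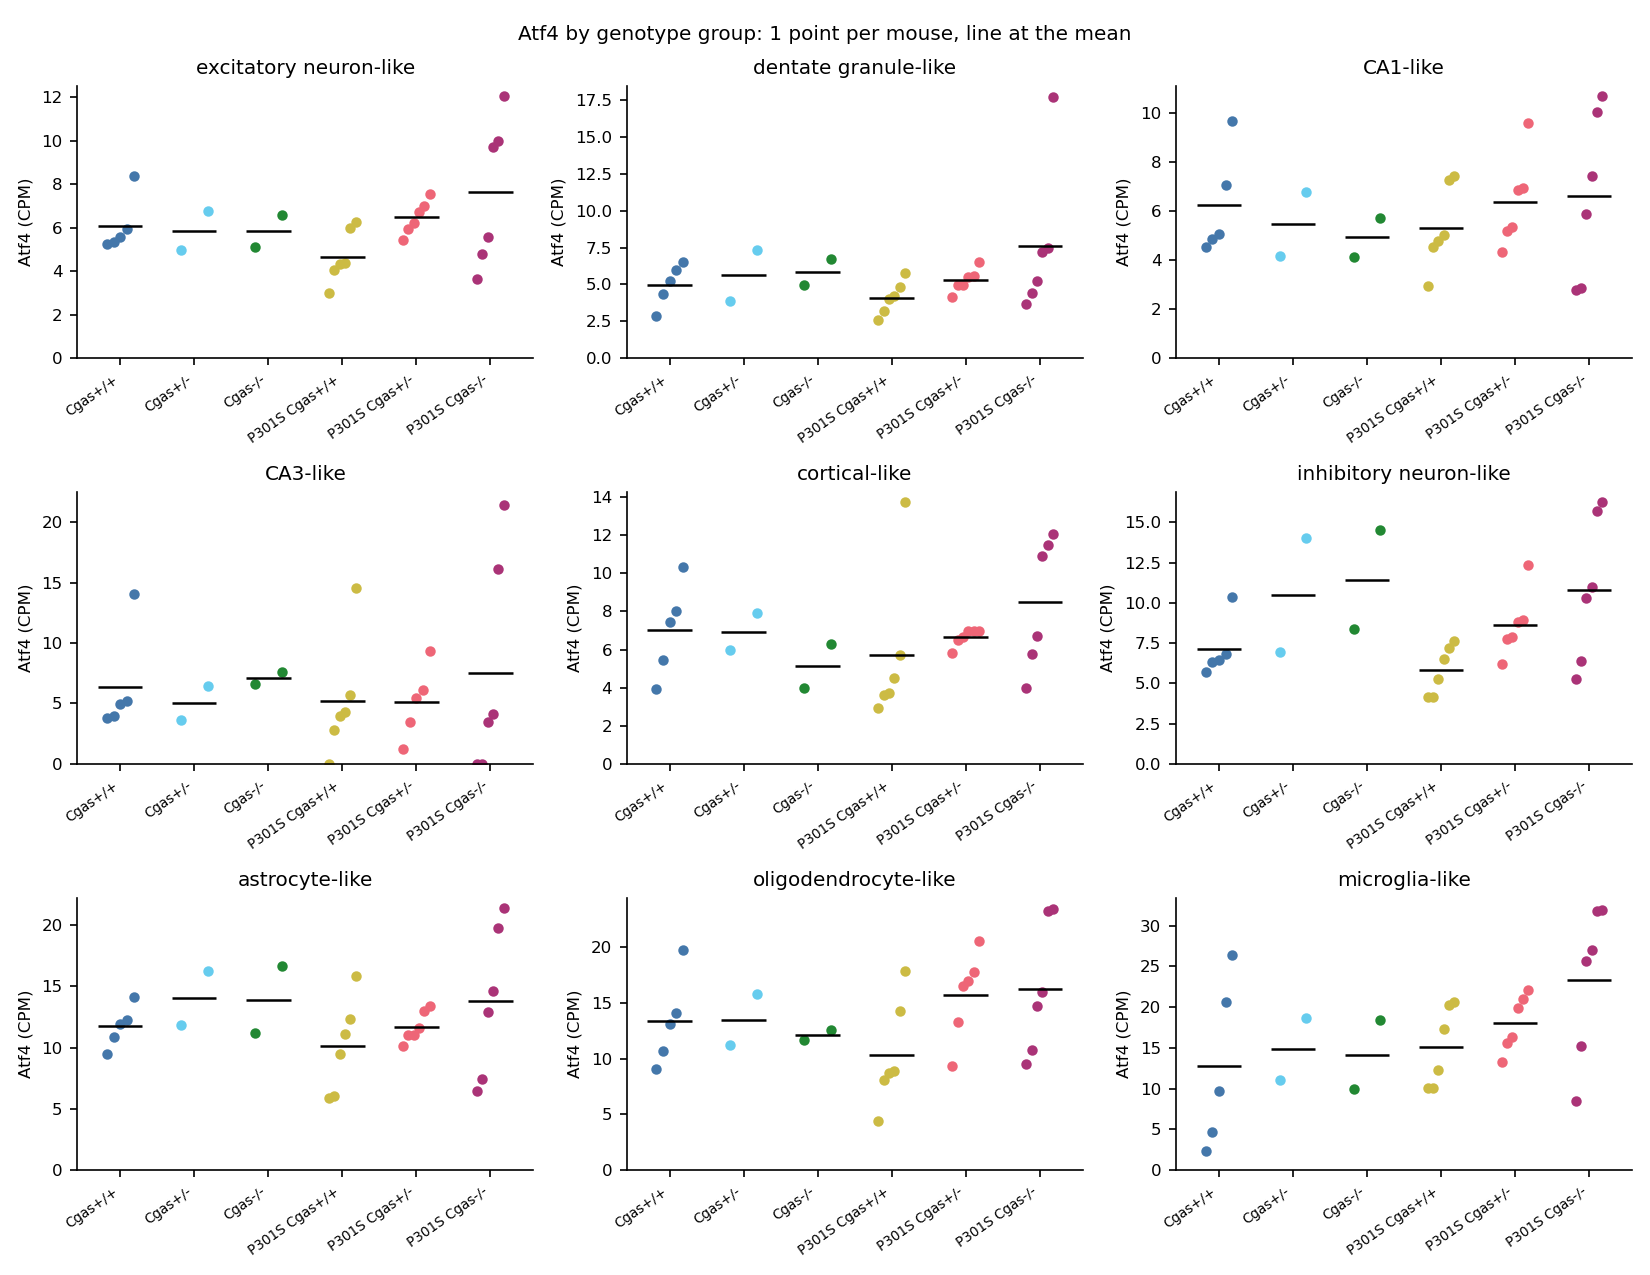
Atf4 level (CPM) in each mouse by genotype group in the 9 classes. Points are mice, sorted from low to high within a group, and lines are group means; in excitatory neuron-like nuclei the P301S Cgas-/- mice spread from 3.63 to 12.1 CPM and the P301S Cgas+/+ mice from 2.99 to 6.24 CPM.

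Hspa5 in microglia-like nuclei moved the other way in this comparison. The 6 P301S Cgas+/+ mice were at 40.6, 40.6, 41.3, 44.0, 57.6 and 59.0 CPM and the 6 P301S Cgas-/- mice at 16.0, 31.9, 32.3, 34.1, 35.6 and 41.8 CPM. Only 1 deleted mouse reached the range of the other group. The log2 fold change of -0.61 (SE 0.21, interval -1.05 to -0.17) had an adjusted p of 1, in a class where 267 genes had an unadjusted p under 0.05 and 0 were called. Cgas+/+ mice ran from 31.7 to 64.4 CPM and overlapped both. All but 1 of them lay at 31.7 to 39.4 CPM, below every P301S Cgas+/+ mouse.

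Other members had an unadjusted p under 0.05 in single classes of this comparison. Hspa8 in astrocyte-like nuclei had a log2 fold change of 0.59 (SE 0.20, interval 0.19 to 0.99, adjusted p = 0.808), with 15.4 to 35.4 CPM, median 30.9, in the deleted mice, and 0.32 with the ribosomal protein share as a term. Since this comparison and that of P301S Cgas+/+ with Cgas+/+ share the 6 P301S Cgas+/+ mice, the opposite signs of Hspa8 are not independent. Hsph1 in oligodendrocyte-like nuclei had -0.36 (SE 0.16, adjusted p = 1), which became -0.21 without P301S Cgas+/+ replicate 1, and Dnajb1 in CA1-like nuclei 0.85 (SE 0.41, adjusted p = 1). Hsp90aa1 and Hsp90ab1 were above 0 in 9 of 9 classes, from 0.04 to 0.47 and from 0.08 to 0.53.

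With 1 Cgas allele lost among P301S mice, Atf4 was above 0 in 8 of 9 classes and Xbp1 in 9 of 9. The share of all genes called was 0.0225% in inhibitory neuron-like nuclei, 0.00898% in CA3-like nuclei and 0% elsewhere (by DESeq2, 141 genes in excitatory neuron-like nuclei), and 0 of 87 member tests were called, 5 with an unadjusted p under 0.05. Atf4 had 0.43 (SE 0.21, adjusted p = 0.392) in excitatory neuron-like and 0.59 (SE 0.26, adjusted p = 1) in oligodendrocyte-like nuclei, where it was 0.97 in male mice alone and 0.89 without the 3 libraries that stood apart. In the first it was at 5.42 to 7.57 CPM, median 6.46, in P301S Cgas+/- mice. Xbp1 had 0.45 (SE 0.20, adjusted p = 0.733) in inhibitory neuron-like nuclei, and 0.28 without those 3 libraries. Hspa4l had -0.23 (SE 0.09, adjusted p = 0.952) in dentate granule-like and -0.34 (SE 0.16, adjusted p = 0.65) in CA3-like nuclei, which were -0.37 and -0.59 in male mice alone. These values share the P301S Cgas+/+ mice with those for the loss of both alleles.

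**Figure D3:**
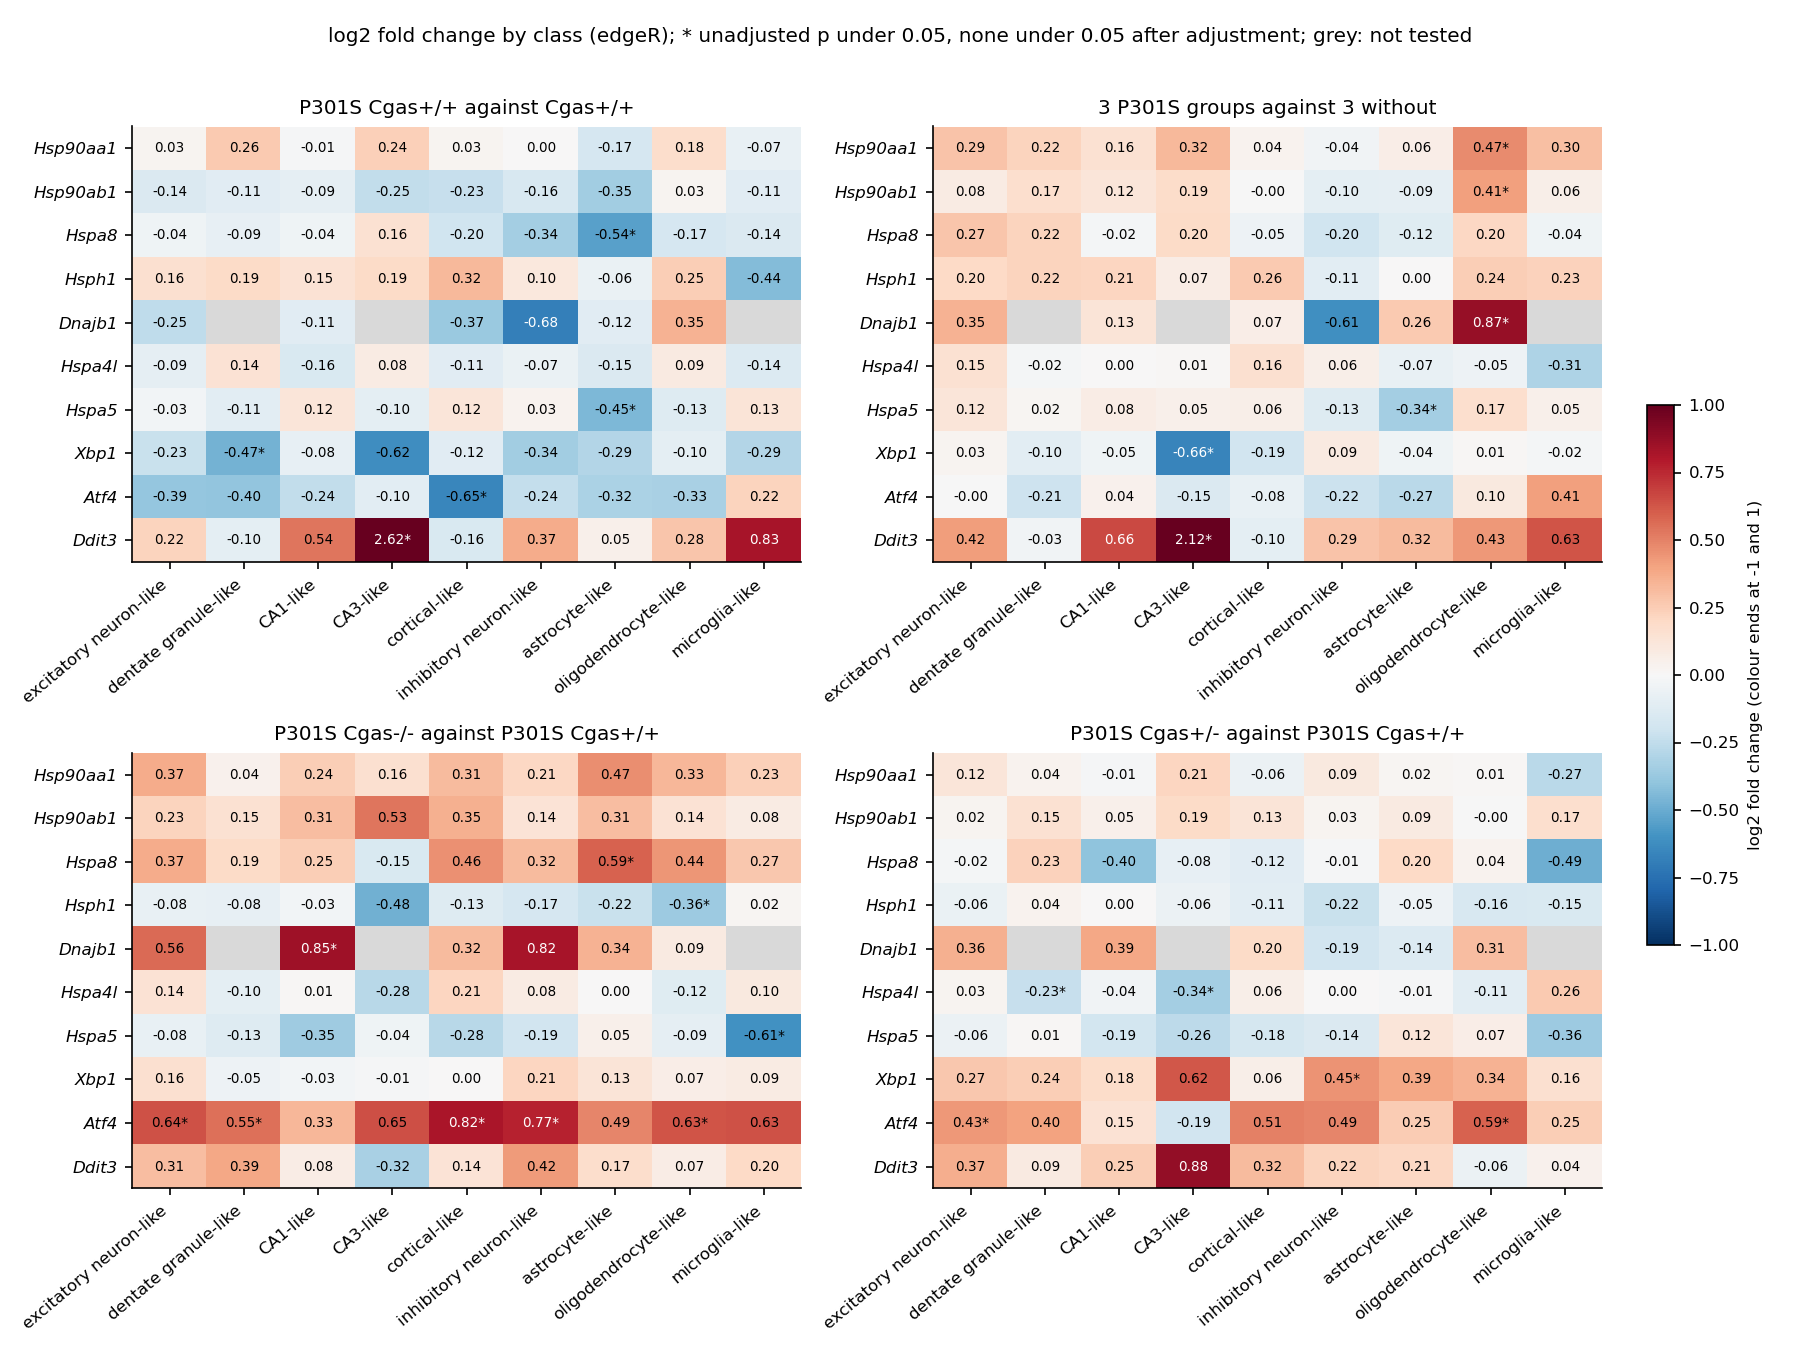
Log2 fold changes of the 10 genes (rows) in the 9 classes (columns) for 4 comparisons: P301S Cgas+/+ against Cgas+/+, all P301S groups against all others, and P301S Cgas-/- and P301S Cgas+/- against P301S Cgas+/+. Asterisks mark an unadjusted p under 0.05 and grey a gene that was not tested; no cell passed the adjusted threshold, and 5 of the 9 asterisks for P301S Cgas-/- belong to Atf4.

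Without tau, 2 Cgas-/- mice were compared with 5 Cgas+/+ mice, and the difference between this effect and that among P301S mice was tested as an interaction. The share of all genes called was 0% in all 5 broad classes for the first (by DESeq2, 97 genes in excitatory neuron-like nuclei), and 0.516% in excitatory neuron-like nuclei and 0% in the other 4 classes for the interaction. Of 49 member tests in each, 0 were called and 3 had an unadjusted p under 0.05. Hspa4l in excitatory neuron-like nuclei was at 42.6 and 42.8 CPM in the Cgas-/- mice and at 50.7, 60.5, 61.9, 64.0 and 71.7 CPM in Cgas+/+ mice. The groups did not overlap, but both deleted mice were male, and how often other genes split these mice in this way was not counted. The log2 fold change of -0.46 (SE 0.18) had an adjusted p of 0.497. Dentate granule-like nuclei had less Hspa4l than CA1-like, CA3-like and cortical-like nuclei. They were 1156 of 2231 and 1281 of 2379 excitatory neuron-like nuclei in the Cgas-/- mice. In Cgas+/+ mice they were 579 of 2849, 1423 of 2363, 286 of 3257, 1060 of 3472 and 1094 of 4389. The part of this mix in the Hspa4l values was not tested. The interaction of Hspa4l was 0.61 (SE 0.21, interval 0.16 to 1.05, adjusted p = 0.115), and 0.34 in male mice alone. Its level was 57.7 to 75.1 CPM in P301S Cgas-/- and 45.5 to 68.1 CPM in P301S Cgas+/+ mice. Hsph1 in microglia-like nuclei was at 4.98 and 12.2 CPM in Cgas-/- mice and at 16.4 to 31.7 CPM in Cgas+/+ mice, with a log2 fold change of -1.13 (SE 0.48, adjusted p = 1) and an interaction of 1.15 (SE 0.55, adjusted p = 1). Without Cgas-/- replicate 1 these values were -1.97 and 1.995, and without Cgas-/- replicate 2 they were -0.66 and 0.69. Hsph1 in astrocyte-like nuclei had -0.41 (SE 0.19, adjusted p = 1), and the interaction of Hspa8 there was 0.79 (SE 0.35, adjusted p = 1), or 0.35 with the ribosomal protein share as a term. In these comparisons 27 and 16 of the 49 intervals lay within 2-fold, and the others include changes of more than 2-fold.

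The wider pathways were read from 6 lists. Of all genes in the same classes and comparisons, 7.2% of tests had an unadjusted p under 0.05, which is the background for the shares below. Of 26 further genes of the Hsp70, Hsp40 and small heat shock protein families, 954 tests over classes and comparisons gave 1 higher call, for Cryab, and 3 lower calls, for Hspa12a in 2 classes and for Dnajc6, and 43 (4.51%) had an unadjusted p under 0.05. All 10 calls in the lists came from the comparison of all P301S groups with all others. There 2.51% of all genes were called in excitatory neuron-like, 2.68% in astrocyte-like and 0.702% in dentate granule-like nuclei. The Cgas+/- and Cgas-/- mice without tau, 2 each, weigh more in it than the 5 Cgas+/+ mice. Their file headers all name Cell Ranger 3.0.2, and the header version was not a term of the main fit. Hspa12a, a divergent member of the Hsp70 family, fell in excitatory neuron-like nuclei by 0.45 (SE 0.10, adjusted p = 0.022) and in dentate granule-like nuclei by 0.62 (SE 0.13, adjusted p = 0.0284) on the log2 scale. In excitatory neuron-like nuclei it was at 88.1 ± 9.46 CPM (n = 5) in Cgas+/+ mice, 81.2 ± 13.8 (n = 6) in P301S Cgas+/+ mice, 64.9 ± 6.57 (n = 6) in P301S Cgas+/- mice and 67.7 ± 9.44 (n = 6) in P301S Cgas-/- mice. In the same nuclei it was at 92.5 ± 14.2 CPM (n = 2) in Cgas+/- mice and 96.2 ± 6.95 CPM (n = 2) in Cgas-/- mice. The call was lost without the 3 libraries that stood apart and in 3 of 27 fits that left out 1 mouse, those of Cgas+/- replicate 2 and Cgas-/- replicates 1 and 2, with an adjusted p of up to 0.128. Cryab, a small heat shock protein abundant in oligodendrocytes, rose by 0.86 (SE 0.23, adjusted p = 0.0482) in excitatory neuron-like nuclei, with 0.667 ± 0.164 CPM (n = 5) in Cgas+/+ mice but 1.14 ± 0.497 CPM (n = 6) in P301S Cgas+/+ mice, against 85.4 CPM in oligodendrocyte-like nuclei. Dnajc6, the J-domain protein auxilin, fell by 0.47 (SE 0.12, adjusted p = 0.0408) in astrocyte-like nuclei. Cryab and Dnajc6 also lost their calls with the Cell Ranger version of the file header as a term. Both calls and that of Hspa12a in dentate granule-like nuclei were lost in 9 to 17 of the 27 fits without 1 mouse. Cryab also lost its call without the 3 libraries that stood apart and with no filter on low counts. Dnajc6 lost it with the ribosomal protein share as a term and in male mice alone. Hspa12a in dentate granule-like nuclei lost it with no such filter and without sex as a term.

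In the other lists the calls were in microglia-like and astrocyte-like nuclei, where 11.6% and 2.68% of all genes were called for all P301S groups. Of 22 Hsp90 co-chaperones and chaperonins, 19 to 21 of them tested in a class, 0 were called in 954 tests (22, or 2.31%, with an unadjusted p under 0.05), and of 18 ER chaperones and folding enzymes 0 were called in 778 (40, or 5.14%, with an unadjusted p under 0.05), both by edgeR. Of 18 sensors of the unfolded protein response and factors of ER-associated degradation (818 tests, 38 or 4.65% with an unadjusted p under 0.05), Atf6, a sensor that is cut to a transcription factor, rose by 0.32 (SE 0.10, adjusted p = 0.0456) in microglia-like nuclei, a call lost in 14 of 27 fits without 1 mouse and under 5 of 8 other settings, the header version as a term among them. Of 24 genes of the integrated stress response (868 tests, 87 or 10.0% with an unadjusted p under 0.05), Atf3, a factor induced by ATF4 and other signals, and Eif2ak2, the interferon-inducible kinase PKR, rose there. Atf3 had 3.56 (SE 0.86, adjusted p = 0.0114), with 2.65 ± 2.95 CPM (n = 5) for Cgas+/+ mice against 21.4 ± 20.5 CPM (n = 6) for P301S Cgas+/+ mice. Eif2ak2 had 1.02 (SE 0.27, adjusted p = 0.0175), with 70.0 ± 13.5 and 145 ± 60.9 CPM. The mice of these groups overlapped, with 0 to 7.06 and 2.46 to 55.4 CPM for Atf3 and 56.5 to 87.8 and 60.9 to 213 CPM for Eif2ak2. Both fold changes are those of all P301S groups, and neither gene was called for P301S Cgas+/+ against Cgas+/+. Atf4 itself stood at 12.8 ± 10.4 and 15.1 ± 4.94 CPM in these nuclei, which overlapped too. Without Cgas+/- replicate 2, Atf3 had an adjusted p above the threshold, as it had without Cgas-/- replicate 1, and Eif2ak2 lost its call without either of those and without Cgas+/- replicate 1. With the ribosomal protein share as a term Eif2ak2 was not called.

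Of the 10 immediate early genes, 3 rose, and 65 of 368 tests (17.7%) had an unadjusted p under 0.05. In excitatory neuron-like nuclei 0 were called for all P301S groups, with 6 of 10 at an unadjusted p under 0.05 and a median log2 fold change of 1.01 beside 0.01 over all genes. Egr1 had 2.27 (SE 0.55, adjusted p = 0.00934) in microglia-like nuclei, and Fos had 2.61 (SE 0.51, adjusted p = 0.0239) and Junb 2.92 (SE 0.64, adjusted p = 0.0248) in astrocyte-like nuclei. Junb was not called with the header version as a term. Fos and Junb lost their calls without any 1 of the 4 Cgas+/- and Cgas-/- mice, and Egr1 without Cgas+/- replicate 2. Of the members, 0 were called in the same classes, and their median log2 fold change for all P301S groups was 0.06 in microglia-like and -0.06 in astrocyte-like nuclei, beside 0.00 and 0.01 over all genes.

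Within groups, Hsp90aa1, Hsp90ab1 and Hspa8 were positively correlated from mouse to mouse in all 5 classes examined. For members of at least 5 CPM, log2(CPM + 1) was centred on the group mean and pairs were correlated over the 27 mice, with permutation p values adjusted over the pairs of a class. The permutations treated the 27 centred values as free, although centring on 6 group means ties them. These p values can therefore be too small, and pairs close to the threshold are uncertain. In dentate granule-like nuclei 14 of 28 pairs passed, all of them positive (11 by Spearman's rho), in oligodendrocyte-like nuclei 19 of 36 (16), in astrocyte-like nuclei 14 of 36 (11), in excitatory neuron-like nuclei 13 of 28 (11) and in CA1-like nuclei 4 of 28 (5). In astrocyte-like nuclei 3 of the 14 were negative, those of Hspa4l with Hsp90aa1, Hsp90ab1 and Atf4. In dentate granule-like nuclei Hspa4l had r of -0.06, -0.16 and 0.01 with Hsp90aa1, Hsp90ab1 and Hspa8, and of -0.01, 0.05 and 0.36 without the 3 libraries that stood apart, some of which held few such nuclei. Without them its r went from 0.03 to 0.75 with Xbp1 (permutation adjusted p = 0.000168) and from 0.13 to 0.66 with Hsph1 (permutation adjusted p = 0.00224). Many genes vary together in such sums. Among all pairs of genes of at least 5 CPM, r was as far from 0 as in the weakest member pair that passed in 19.8% of pairs in dentate granule-like, 8.61% in oligodendrocyte-like, 9.82% in astrocyte-like, 24.9% in excitatory neuron-like and 6.98% in CA1-like nuclei. The members' shares by the same measure were 50%, 52.8%, 38.9%, 46.4% and 14.3%, a description of genes that share libraries and depth.

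The 3 pairs among Hsp90aa1, Hsp90ab1 and Hspa8 passed in each of the 5 classes, with r of 0.76 to 0.94 in CA1-like, 0.70 to 0.79 in excitatory neuron-like and 0.61 to 0.82 in astrocyte-like nuclei. The excitatory class includes the dentate granule-like and CA1-like nuclei, and all classes of a mouse share its library. The 5 classes are thus not separate tests. The highest value of all was that of Hsp90aa1 with Hspa8 in CA1-like nuclei, at 0.94, and 0.81 without the 2 mice farthest from the median. Each of these genes was at 0 CPM in 1 mouse there, and 1 mouse had only 22 CA1-like nuclei. Their r was 0.98 within the libraries whose headers name Cell Ranger 3.0.2 and 0.84 within those that name 3.1.0. In dentate granule-like and oligodendrocyte-like nuclei the tightest pair was Hsp90ab1 with Hspa8. In dentate granule-like nuclei Pearson's r was 0.90 (permutation adjusted p = 0.00028) and Spearman's rho 0.89 (permutation adjusted p = 0.00014), and r was 0.87 without the 2 mice farthest from the median. In oligodendrocyte-like nuclei r was 0.93 (permutation adjusted p = 0.00012), rho 0.90 (permutation adjusted p = 0.00012), and r without the 2 farthest mice 0.92. Of all pairs of genes, 0.0511% in the first class and 0.00183% in the second had an r at least as high as this pair. Within the 12 libraries whose headers name Cell Ranger 3.0.2 and the 15 that name 3.1.0, r was 0.91 and 0.92 in dentate granule-like and 0.90 and 0.93 in oligodendrocyte-like nuclei. The level of Hsp90ab1 followed the ribosomal protein share, with r of 0.79 in dentate granule-like and 0.52 in oligodendrocyte-like nuclei, as did that of Hspa8, with 0.77 and 0.56. On residuals from that share, r of the pair was 0.75 and 0.90, and 7 of the 28 dentate granule-like pairs passed in place of 14. Hsp90aa1 with Hspa8 went from 0.66 to 0.31 in dentate granule-like nuclei on these residuals and no longer passed (permutation adjusted p = 0.202). In oligodendrocyte-like nuclei that pair went from 0.84 to 0.75. Residuals were not taken in the other 3 classes.

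**Figure D4:**
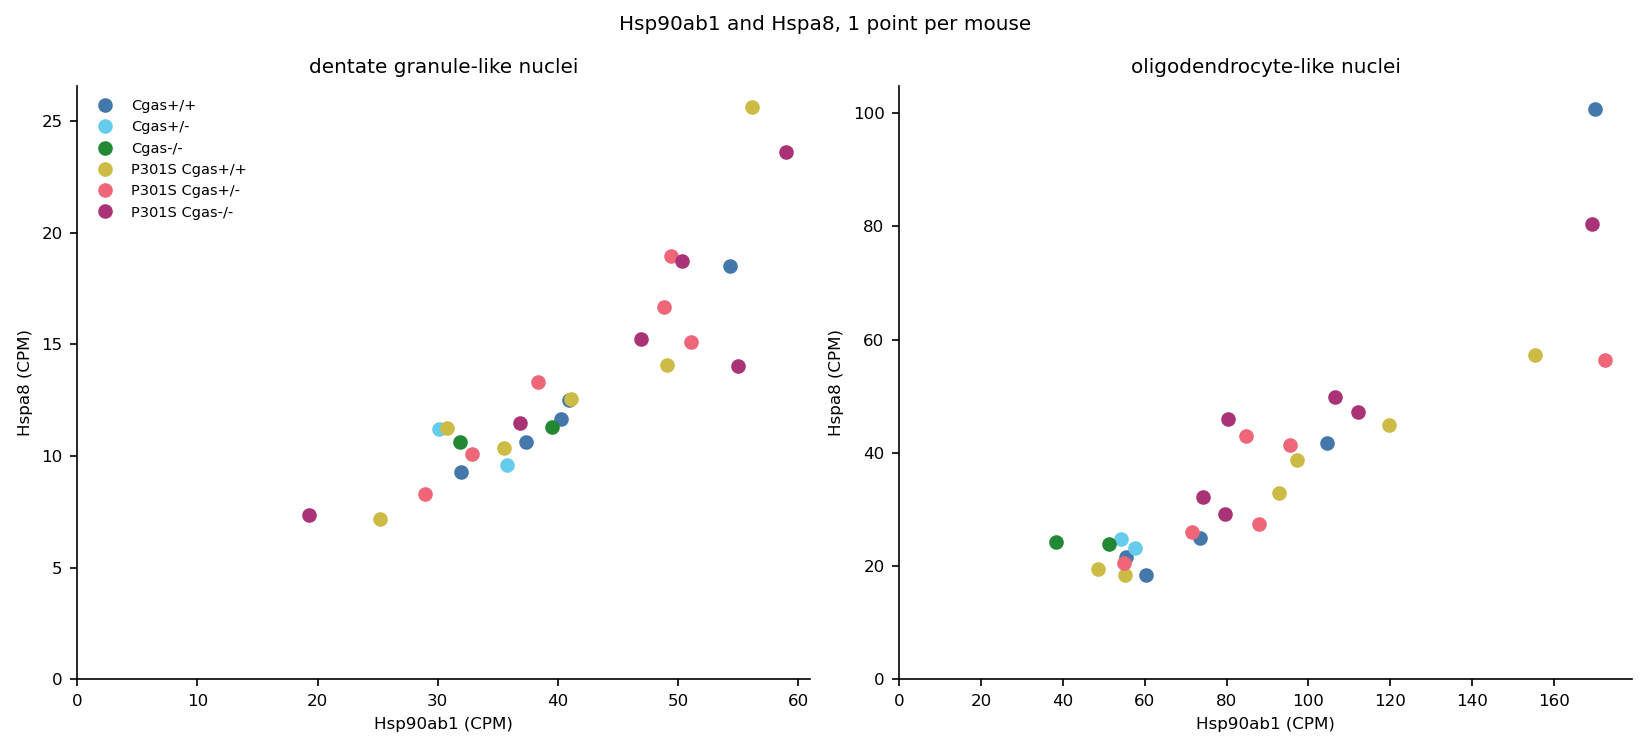
Hsp90ab1 against Hspa8 (CPM) in dentate granule-like and oligodendrocyte-like nuclei. Each point is a mouse, coloured by genotype group; the points lie along a rising band in both classes (r = 0.90 and 0.93 after centring on groups), with the groups intermixed.

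Other pairs varied more between classes. Hsp90aa1 and Hsp90ab1 had r of 0.76 (rho 0.69, permutation adjusted p = 0.00035) in dentate granule-like nuclei, but 0.58 without the 2 farthest mice, 0.44 within the libraries of the older header and 0.51 on ribosomal residuals. Without the 3 libraries that stood apart it was 0.87. In oligodendrocyte-like nuclei the same pair had 0.88 (rho 0.85) and 0.88 without 2 mice. Xbp1 and Atf4 had 0.73 (rho 0.69, permutation adjusted p = 0.00035) in dentate granule-like nuclei, 0.59 without 2 mice and 0.64 on ribosomal residuals. Without the 3 libraries that stood apart, some of which held few such nuclei, this pair had 0.54 (permutation adjusted p = 0.0187). In the other classes it had 0.47 in excitatory neuron-like (permutation adjusted p = 0.0321), 0.40 in CA1-like (0.192), 0.27 in astrocyte-like (0.262) and -0.01 in oligodendrocyte-like nuclei (0.943). Hsph1 and Xbp1 had 0.67 (rho 0.55, permutation adjusted p = 0.000616) in dentate granule-like nuclei, 0.53 without 2 mice and 0.62 without those 3 libraries. This pair had 0.60 and 0.62 in CA1-like and excitatory neuron-like nuclei and passed there, but 0.18 and 0.14 in oligodendrocyte-like and astrocyte-like nuclei, where it did not. Hspa5 followed Hsp90ab1 in oligodendrocyte-like nuclei, with 0.70 (rho 0.59, permutation adjusted p = 0.000432). In dentate granule-like nuclei the same pair had 0.18 (rho 0.31, permutation adjusted p = 0.557), where Hspa5 instead followed the number of UMIs of the class, with r of 0.68. That r includes 2 mice with only 17 and 35 such nuclei and was not computed without them.

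**Figure D5:**
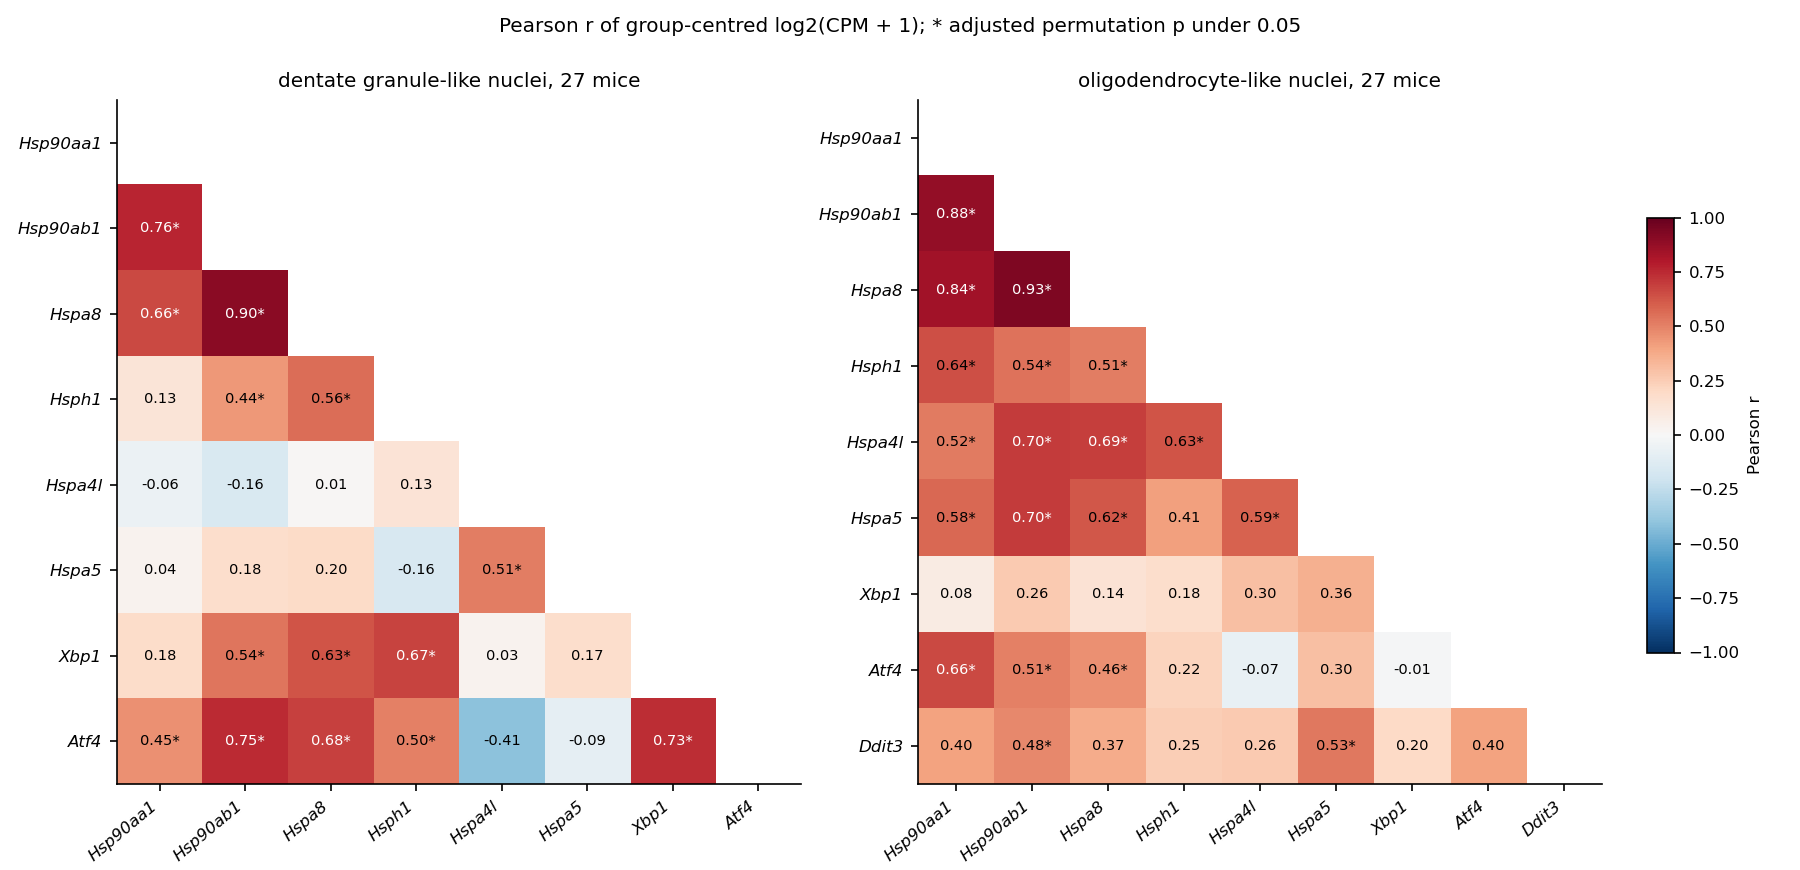
Pearson's r between members over the 27 mice, centred on groups, in dentate granule-like and oligodendrocyte-like nuclei. Asterisks mark an adjusted permutation p under 0.05; Hsp90aa1, Hsp90ab1 and Hspa8 form a block of positive values in both classes before the ribosomal protein share is taken into account.

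The genes most like each member by r were searched among the 14387 genes tested in dentate granule-like and the 12979 in oligodendrocyte-like nuclei, as a description. The search used all 27 mice, also 2 with only 17 and 35 dentate granule-like nuclei (169437 and 241617 UMIs). At that depth genes of few CPM have very few UMIs, and r was not computed without these 2 mice. In dentate granule-like nuclei Hspa8 was the second nearest gene to Hsp90ab1, after 1110008F13Rik (0.91), and Hsp90ab1 was the nearest to Hspa8. Hspa5 was nearest to Ckap4 (0.88), which encodes an ER membrane protein and was at 1.9 CPM. Hspa4l was nearest to Gad1 (0.86), Hsph1 to Kansl3 (0.82) and then to Syvn1 (0.82), an ER ubiquitin ligase, Xbp1 to Gga3 (0.86), and Atf4 to Eif2ak1 (0.85), a kinase of the integrated stress response. Hsp90aa1 was nearest to the ribosomal protein fusion gene Fau (0.85).

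In oligodendrocyte-like nuclei Hsp90aa1 was nearest to Arl8a (0.89) and then to Hsp90ab1 (0.88). Hsp90ab1 was nearest to Hspa8 (0.93), Hsp90aa1 (0.88) and Cryab (0.87). Hspa4l was nearest to Hsp90b1 (0.81), which encodes the ER Hsp90, and Hspa5 to Calr (0.84), the ER chaperone calreticulin. Atf4 was nearest to the ribosomal protein genes Rpl6 (0.85) and Rpl37a (0.83). Hspa8 was next nearest to Pcsk1n (0.90) and to the myelin gene Cnp (0.89), Ddit3 was nearest to Hdac11 (0.78), Xbp1 to Pik3c2b (0.77) and Hsph1 to Txlng (0.83).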

How the data were processed

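UMI counts per gene and barcode were deposited by the authors as 1 filtered matrix a library. Per the study's methods, frozen hippocampi were homogenised, nuclei were sorted, 3' libraries were made on the 10x platform, and reads, intronic ones included, were aligned to mm10 with Cell Ranger. The submitters' notes name Cell Ranger 3.1.0 and Seurat 3.0, and the file headers name 3.0.2 for 12 libraries, all of male mice and 2 of each group, and 3.1.0 for 15. From these counts, nuclei outside 200 to 4000 genes or with over 5% of UMIs from mitochondrial genes were left out, and likely doublets were removed at an expected share that grew with the barcodes of a library. Nuclei were clustered (scanpy 1.11.5, Python 3.11.15; 2000 variable genes, 30 components, 15 neighbours, leidenalg 0.10.2 at resolution 1) into 46 clusters and named from marker lists. The naming rule was revised once after cluster names and markers had been seen, and before groups were compared.

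Counts were summed per mouse and class, and mice with under 20000 UMIs in a class were dropped (3 mice in CA3-like nuclei). Sums were tested with edgeR 4.0.16 in R 4.3.3 (TMM, filterByExpr, robust quasi-likelihood, 6 groups and sex as terms, all mice sharing 1 estimate of the spread), adjusted over all genes of a class and contrast. Called means an adjusted p under 0.05. The study tested single nuclei, which are not replicates, and the replicates here are separate mice. Sex-term, normalization (RLE), filter, ribosomal share, header version, depth minimum, DESeq2 1.42.0, male mice alone, the 23 mice of 4 groups and leave-one-out fits were tried as alternatives. Scripts were tested on simulated counts. Permutation tests used 100000 resamples and a pseudocount of 1 CPM. CPM values are relative, and class depth, from 268120 to 1897792 UMIs a mouse in microglia-like and 13659820 to 41296360 in excitatory neuron-like nuclei, sets their precision. The members and the 6 pathway lists were chosen with earlier results of these data known. Named genes are all members, list genes with an adjusted p under 0.05 (at most 3 a list, contrast and class), and the 3 genes nearest to each member of at least 5 CPM. One nearest gene is not reported here.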

Additional observations from a re-analysis of the deposited data

Results flagged for a closer look

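In 20 of 200 combinations of gene, broad class and group of 4 or more mice (10%), 1 mouse lay far from the rest of its group by Dixon's criterion, which chance alone gives in about 1 of 20. Cgas+/+ replicate 4 was the high mouse in 7 of them: for Hsp90ab1 in excitatory neuron-like (64.2 CPM) and inhibitory neuron-like (64.8 CPM) nuclei, Hspa8 in excitatory neuron-like (27.8 CPM) and oligodendrocyte-like (101 CPM) nuclei, Hspa5 in microglia-like nuclei (64.4 CPM), and Atf4 in excitatory neuron-like (8.36 CPM) and inhibitory neuron-like (10.3 CPM) nuclei. P301S Cgas+/+ replicate 1 was the high mouse in 5: for Hspa8 (29.0 CPM), Hsph1 (55.6 CPM), Dnajb1 (2.65 CPM) and Ddit3 (5.11 CPM) in excitatory neuron-like nuclei and for Dnajb1 in inhibitory neuron-like nuclei (2.27 CPM). P301S Cgas-/- replicate 2, a library that stood apart in its class sizes, was high for Hsp90aa1 (29.0 CPM) and Dnajb1 (5.79 CPM) in microglia-like nuclei and for Xbp1 in inhibitory neuron-like nuclei (12.6 CPM). P301S Cgas+/- replicate 4 was high for Hsp90ab1 in oligodendrocyte-like nuclei (172 CPM) and Hsph1 in excitatory neuron-like nuclei (45.9 CPM), and P301S Cgas-/- replicate 3 for Hsph1 in excitatory neuron-like nuclei (52.8 CPM). The low mice, both in inhibitory neuron-like nuclei, were P301S Cgas+/- replicate 1 for Hsp90ab1 (32.1 CPM) and P301S Cgas+/+ replicate 3 for Hspa4l (47.9 CPM).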

How the results depend on the processing

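Counts of members called stayed at 0 in 354 of 356 alternative fits, leaving out each mouse in turn among them. The exceptions were the fits with no filter on low counts in the excitatory subtypes, which called 1 member for P301S Cgas+/+ against Cgas+/+ and 1 for all P301S groups against the others, in both cases Ddit3 in CA3-like nuclei. Of the 134 neighbouring classes, 10 to 16 differed when 1 mouse was left out, 10 with a pseudocount of 5, 13 with at least 100000 UMIs a class and 11 without the 3 libraries that stood apart. Of the 28 pairs of members in dentate granule-like nuclei, 12 to 14 passed when 1 mouse was left out, 12 without centring, and 7 on residuals from the ribosomal protein share. In CA1-like nuclei 4 passed. The cause was not tested. No fold change reversed among the 31 member tests with an unadjusted p under 0.05 and the 10 called list values. These values were picked for a small p, which by itself makes a reversal unlikely, so this does not show that they are stable. Among pairs in dentate granule-like nuclei, r of Hspa4l with Atf4 went from -0.41 to 0.18 and with Hsp90ab1 from -0.16 to 0.05 without the 3 libraries. Counts over all genes moved more: in the comparison of all P301S groups, 443 genes in excitatory neuron-like nuclei became 35 without the 3 libraries, a choice made after seeing the data, and 1712 in male mice alone, 370 in astrocyte-like nuclei became 98 with the header version as a term and 717 by DESeq2, 1127 in microglia-like nuclei became 481 with the ribosomal share and 1701 with no filter, and 101 in dentate granule-like nuclei became 35 in male mice and 235 by DESeq2. For P301S Cgas+/+ against Cgas+/+, 23 genes in microglia-like nuclei became 0 in male mice and 832 with no filter. In excitatory neuron-like nuclei DESeq2 called 209 genes for P301S Cgas-/- against P301S Cgas+/+, where edgeR called 0, and 1117 for the interaction, where edgeR called 91 and male mice gave 0. No paired analysis was possible because replicate numbers only follow the order of deposit and pair no mice.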
